A study of Saccharomyces cerevisiae with 28 samples.

Results

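The first 204 bases of IGS1, the intergenic spacer that begins right of the 5S RNA gene in the yeast ribosomal DNA (rDNA), were described at single-base resolution. These bases, chromosome XII 459797 to 460000 of the sacCer3 build, were chosen by position as the end of the deposited table, which gives read depth over 2001 bases from 458000 to 460000. They make up 22.3% of the 915 bases of IGS1, which the RefSeq annotation calls NTS1-2 and places at 459797 to 460711. The annotation places no gene in them, RDN5-1 (5S RNA, 459676 to 459796) directly left of them, and the origin of replication ARS1200-1 (rARS), which starts at 458991, 806 bases left of them.

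The libraries came from *Saccharomyces cerevisiae* studied for the effect of the histone deacetylase Sir2 on the rDNA origin. MNase-seq, in which micrococcal nuclease leaves DNA that is covered by proteins, was available for 6 libraries. The *sir2* strain (sir2Δ::KanMx) and the WT strain, both hmlα::HygR, were each arrested in G1 with alpha factor and in G2 with nocodazole. The cdc6-1(ts)::KanMx strain, which does not carry hmlα::HygR and whose loading factor Cdc6 fails at the restrictive temperature, was arrested in G1 at 37 and at 23 degrees. The paper first held these cells in G2 with nocodazole, then released them into alpha factor, for longer at 23 than at 37 degrees. Temperature and arrest time therefore cannot be told apart. WT and *sir2* cells were arrested from log phase at another temperature. The library names give 7.5 U of nuclease for every G1 library and 3.75 U for every G2 library, so that arrest and digestion cannot be told apart. Mcm2-ChEC, in which a calcium pulse activates nuclease fused to the helicase subunit Mcm2, was available for 7 libraries from G1 cells. They were 1 *sir2* library (sir2Δ::LEU2) and 2 WT libraries, a larger and a smaller one, of strains that both carry hmlα::HygR, and, in strains with an expanded rDNA array, 2 *sir2* libraries (sir2Δ::LEU2, hmlαΔ::NAT) and 2 *SIR2* libraries, each pair with 30 and 60 s of calcium. Every ChEC strain carries MCM2-3xFLAG-MNase-KanMx at the gene's own locus. The name of the smaller WT library gives 1 min of calcium and also carries a tag for copper, o5mMCu, that no other library name used here has and that the labels do not explain. A figure legend of the paper gives 30 s for this WT and *sir2* strain pair. The names of the larger WT and the *sir2* library do not clearly state a calcium time, so theirs was not settled. DNA fragmented by sonication from flow-sorted, log-phase G1 and S phase cells of expanded strains without the fusion, 2 *sir2* libraries (sir2Δ::LEU2, hmlαΔ::NAT) and 2 *SIR2* libraries, has no footprints and served as the reference profile. All strains are MATa. The strains of the 9 libraries without the expanded array are of S288C background (his3, leu2, met15 and ura3). Those of the 8 expanded-array libraries are not, and share fob1Δ::HIS3, chromosome XII right armΔ::HygR and the alleles can1-100, his3-11, ura3-1, ade2-1 and trp1-1 beside a leu2 double mutation, so that assay and strain cannot be told apart in any comparison of MNase-seq with sonicated DNA. The labels do not say that samples came from separate cultures, and p-values measure only the spread between these libraries.

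Each rDNA repeat holds a 35S gene and a 5S gene separated by IGS1 and IGS2. IGS2 holds the origin, and IGS1 holds, farther to the right than the bases described here, the site where Fob1 stops replication forks. Sir2 silences transcription by RNA polymerase II from both spacers, and Mcm2-7 is the helicase that is loaded at the origin in G1.

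The sequence of the region is shown from RefSeq (sacCer3, plus strand, left to right) because several steps of the depth profiles lie at the ends of a long run of thymines. Capitals mark that run.

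start of IGS1, 459797 to 460000: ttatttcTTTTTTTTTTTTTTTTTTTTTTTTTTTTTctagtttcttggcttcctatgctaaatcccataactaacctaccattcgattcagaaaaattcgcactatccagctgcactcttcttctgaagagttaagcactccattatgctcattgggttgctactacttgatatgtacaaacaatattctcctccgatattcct

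The T-run has 29 T, at 459804 to 459832 (bases 8 to 36 of the region), and begins 8 bases after the last base of the 5S gene. A run of 29 T or, on the other strand, 29 A occurred in 1 of 5285 consecutive windows of 204 bases on chromosome XII (0.0189%). Runs of 4 or more T or A occurred in 95.7% of the windows. Of the 155 possible 50-base reads within the region, 155 were unique in the genome. By contrast, 0 of 72 reads within RDN5-1 and 0 of 1194 within NTS2-1 (IGS2) were unique, with up to 6 and 2 copies. The region is therefore the only stretch of the spacers in the table whose reads have a single place in the build.

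The whole table held between 759788 and 2233018 reads per MNase-seq library, between 689392 and 5022993 per Mcm2-ChEC library and between 24177 and 85504 per sonicated library (depth summed over bases, divided by the read length of 50). The region itself held 28912 to 229484, 4258 to 66077 and 941 to 3131 reads. Relative depth is the depth at a base divided by the library's mean over the 2001 bases, so that 1 is an even profile, and the region share is the percent of a library's depth that lies in the region, 10.2% for an even profile. Intervals are at 95% (Wilson for shares, on the log scale for ratios) and cover counting error only.

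One property of the libraries from the expanded strain bears on every comparison with them. Their depth broke off between base 110 (459906) and base 111 of the region. In sonicated DNA the depth was 266 reads at base 110 and 69 at base 111 in *sir2* G1, 237 and 9 in *sir2* S phase, 109 and 59 in *SIR2* G1, and 287 and 38 in *SIR2* S phase. In Mcm2-ChEC of the expanded strain it was 1323 and 19 in *sir2* at 30 s, 4319 and 64 in *sir2* at 60 s, 2392 and 36 in *SIR2* at 30 s, and 3640 and 40 in *SIR2* at 60 s. The break was thus at the same base in *sir2* and *SIR2* cells and in both assays, a fall of 45.9 to 96.2% in sonicated DNA and of 98.5 to 98.9% in Mcm2-ChEC. In the 9 libraries of the other strains depth fell by 2.94 to 7.17% at this step. Mean relative depth over the 94 bases to the right was 0.00405 to 0.0752 in sonicated DNA and 0.000422 to 0.000859 in Mcm2-ChEC of the expanded strain, against 0.0470 to 1.31 in the other strains.

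The bases around the break are shown to give its place, with the bases right of it in capitals.

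459887 to 459926: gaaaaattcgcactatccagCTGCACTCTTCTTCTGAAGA

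The break lies in the middle of the only CAGCTG of the region (459904 to 459909, bases 108 to 113), a palindrome that reads the same on both strands, is recognised by the restriction enzyme PvuII and does not overlap the T-run. CAGCTG occurred in 3.22% of the 204-base windows of chromosome XII. This motif was looked for after the place of the break was seen, and the match is a description. The library names show that the expanded strain was mapped to a modified chromosome XII, which was not used here, and its part in the break was not tested. The sonicated DNA accordingly gives a footprint-free profile for the first 110 bases at most. Its depth already fell towards the break over the last of these bases. Relative depth in the sonicated libraries was 0.750 to 0.808 at base 77 (459873) and 0.111 to 0.180 at base 110. Values over the 110 bases therefore include this fall.

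In MNase-seq, the region held far more of the depth in *sir2* cells than in cells with *SIR2*. The region share was 8.24% (interval 8.20 to 8.28) in *sir2* G1 and 10.3% (10.2 to 10.3) in *sir2* G2. It was 3.06% (3.04 to 3.09) in WT G1 and 4.40% (4.37 to 4.43) in WT G2, and 3.14% at 37 degrees and 3.81% at 23 degrees in *cdc6-1*. Both *sir2* libraries lay above all 4 libraries with *SIR2*, and *sir2* G2 was at the level of an even profile.

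The mean was 9.26 ± 1.44% in *sir2* (SD, n = 2) and 3.60 ± 0.628% in *SIR2* cells (SD, n = 4), a difference of 5.66 percentage points (exact two-sided permutation test, p = 0.0667, the smallest p that 15 regroupings allow; 0.0933 after Benjamini-Hochberg adjustment over 7 tests). This test was added after the values were seen. The *sir2* libraries come from a single strain in both arrests. The *SIR2* libraries come from the WT strain in both arrests and the *cdc6-1* strain at both temperatures. So n counts libraries and not strains, and each SD spans arrests or temperatures. With *sir2* and WT matched by arrest the difference was 5.53 points (exact permutation test, p = 0.5, the smallest that 4 regroupings allow).

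**Figure D1:**
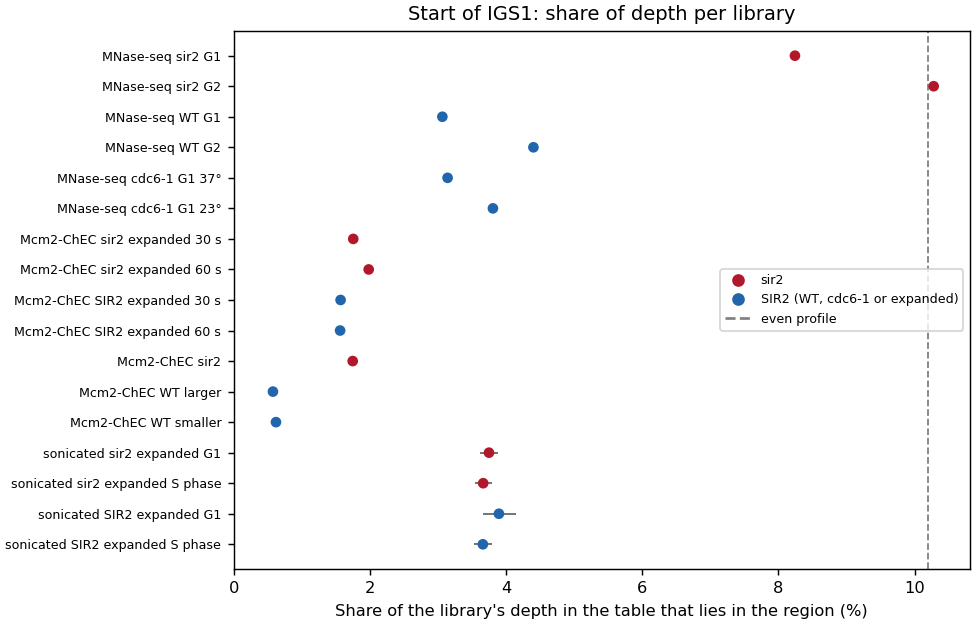
Share of each library's depth over 2001 bases that lies in the first 204 bases of IGS1 (x axis, %), by library (y axis). Points are single libraries, red for sir2 and blue for SIR2, bars are 95% Wilson intervals (mostly smaller than the points) and the dashed line is an even profile at 10.2%. The sir2 MNase-seq libraries, at 8.24 and 10.3%, lie to the right of all others.

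Within strain pairs at the same arrest, relative depth was 2.69 times as high in *sir2* as in WT in G1 (0.808 in *sir2* and 0.300 in WT, interval of the ratio 2.67 to 2.72) and 2.34 times as high in G2 (1.01 in *sir2* and 0.432 in WT, 2.32 to 2.35). *sir2* was above WT at 204 of 204 bases in both arrests. It was at least 2-fold higher at 178 of 204 bases in G1, against 22.0% of all 2001 bases, and at 130 of 204 in G2, against 6.5% of all bases. In G2 the table held 130 bases at or above 2-fold in all, so every one of them lay in this region. With 1 library per strain and arrest these counts have no replicate check.

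The 5S gene on the left was higher in *sir2* as well, though by less. Its relative depth was 1.06 in *sir2* G1 and 0.530 in WT G1, a ratio of 2.01, and 0.925 in *sir2* G2 and 0.549 in WT G2, a ratio of 1.69. Relative to RDN5-1, the region was 1.34 times as high in *sir2* as in WT in G1 and 1.39 times in G2. On this scale the difference between the *sir2* and *SIR2* means was 0.300 (exact permutation test, p = 0.133). The groups overlapped there, as *sir2* G1, at 0.761, lay below WT G2, at 0.787. Reads of the 5S gene can come from more than 1 place in the build, which limits this scale. With the origin window from 170 bases left to 470 bases right of the rARS left out of the total, the ratios of *sir2* to WT were 2.54 in G1 and 2.30 in G2.

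The ratio was not even along the region but peaked in its middle. Over 4 consecutive bins of 51 bases, it was 2.19, 2.76, 3.91 and 2.29 in G1 and 1.85, 2.46, 2.95 and 2.09 in G2. The highest single base was 459916 (base 120) in both arrests, with a ratio of 4.97 in G1 and 3.19 in G2. The lowest was 1.87 at 460000 in G1 and 1.67 at 459797 in G2, the last and the first base of the region.

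**Figure D2:**
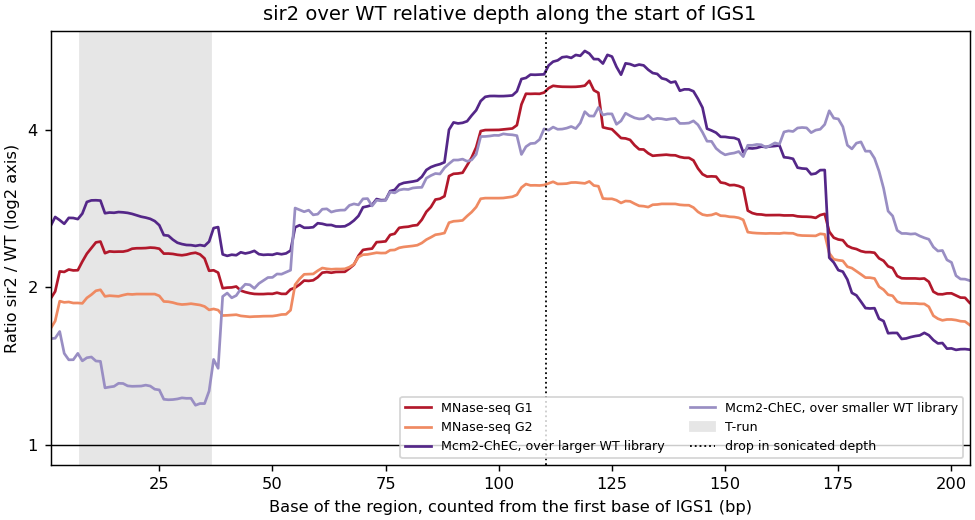
Ratio of relative depth in sir2 to WT (y axis, log2 scale) at each base of the region (x axis, bases from the start of IGS1) for MNase-seq in G1 and G2 and for Mcm2-ChEC over each WT library. The grey band is the T-run and the dotted line the break in sonicated depth. All 4 lines stay above 1, and all are highest in the third of 4 bins.

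Along the bases, MNase-seq depth was low over the T-run, rose to a maximum before the middle and was highest at the right end. Mean relative depth over the T-run was 0.440 in *sir2* G1 and 0.470 in *sir2* G2, against 0.188 in WT G1, 0.247 in WT G2, 0.220 in *cdc6-1* at 37 degrees and 0.315 at 23 degrees. Over the last bin of 51 bases it was 1.14 in *sir2* G1 and 1.43 in *sir2* G2, against 0.500 in WT G1, 0.685 in WT G2, 0.423 in *cdc6-1* at 37 degrees and 0.447 at 23 degrees. The last bin was above the T-run in each of the 6 libraries.

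The first 102 bases held 36.2 and 35.4% of the region's depth in *sir2* G1 and G2, 38.8 and 37.2% in WT G1 and G2, and 44.1 and 48.8% in *cdc6-1* at 37 and 23 degrees. The lowest base was 459833, the first after the T-run, in both *sir2* libraries, 459829 in WT G1 and 459799 in WT G2 and in both *cdc6-1* libraries. The highest base lay between 459988 and 460000 in all 6 libraries, so that the profile was still high where the table ends.

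After smoothing over 11 bases, the profile had an inner maximum at base 83 (459879) in the 4 libraries with *SIR2* and at base 100 (459896) in both *sir2* libraries. Relative depth there was 1.05 in *sir2* G1 and 1.33 in *sir2* G2, against 0.314 in WT G1, 0.457 in WT G2, 0.355 in *cdc6-1* at 37 degrees and 0.484 at 23 degrees. The *sir2* G2 library had another maximum at base 191.

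**Figure D3:**
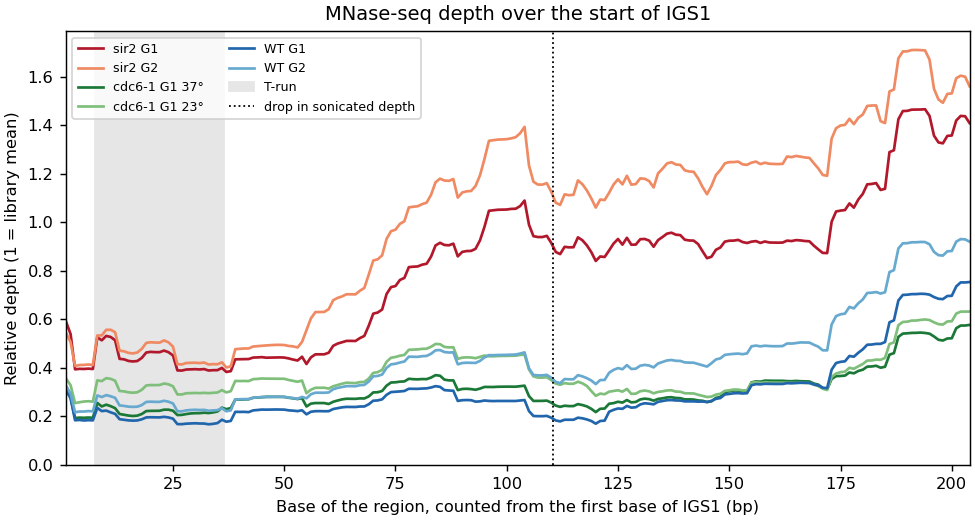
Relative MNase-seq depth (y axis, 1 is the library mean over 2001 bases) at each base of the region (x axis, bases from the start of IGS1) in 6 libraries. The grey band is the T-run and the dotted line the break in sonicated depth. The 2 sir2 lines lie above the 4 others and reach 1.47 and 1.71 near the right end.

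Because depth counts whole 50-base reads, a shared read end appears as a step between neighbouring bases. Of the 6 steepest rises and 6 steepest falls in each library, 4 rises and 4 falls were shared by all 6 MNase-seq libraries. The rises were at 459804, 459969, 459982 and 459984, and the falls came after 459798, 459808, 459884 and 459900. The rise at 459804 was at the first base of the T-run and was also among the steepest in 4 of 4 sonicated libraries. The rises at 459969, 459982 and 459984 and the falls after 459808 and 459900 were among them in 0 of 4 sonicated libraries, of which the 3 rises lie beyond the break in sonicated depth.

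The sequences around the steps near the right end and the middle are shown because these steps were shared by *sir2*, WT and *cdc6-1* cells. Capitals mark the bases on the high side of the step, plus strand.

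rise at 459969: actacttgatATGTACAAAC

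rise at 459982: tacaaacaatATTCTCCTCC

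rise at 459984: caaacaatatTCTCCTCCGA

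fall after 459884: CCATTCGATTcagaaaaatt

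fall after 459900: AATTCGCACTatccagctgc

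Both falls were also among the steepest in 3 of 3 Mcm2-ChEC libraries of the strains without the expanded array, and the fall after 459900 in 4 of 4 Mcm2-ChEC libraries of the expanded strain. A read that ends at 459884 begins at 459835, a base among the steepest rises in 4 of 6 MNase-seq libraries, in 2 of 3 Mcm2-ChEC libraries of the strains without the expanded array (*sir2* and the larger WT) and in 0 of 8 libraries of the expanded strain. A read that ends at 459900 begins at 459851, a base among the steepest rises in these same 2 Mcm2-ChEC libraries and in 0 of 6 MNase-seq and 0 of 8 expanded-strain libraries. At that place the depth of the 4 Mcm2-ChEC libraries of the expanded strain instead had its steepest fall, after 459850. The fall after 459832, the last base of the T-run, was among the steepest in 4 of 4 sonicated libraries and in 3 of 3 and 4 of 4 Mcm2-ChEC libraries, and in 0 of 6 MNase-seq libraries.

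Across the 204 bases, the 15 pairs of MNase-seq profiles had Pearson correlations of 0.601 to 0.980. Neighbouring bases share reads, so that bases are not independent and these values are descriptions. Over the 110 bases with sonicated depth, MNase-seq profiles correlated with sonicated profiles at -0.819 to 0.0686 (24 pairs). The fall of sonicated depth towards the break enters these correlations.

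G1 libraries had less of their depth in the region than G2 libraries of the same strain. In WT cells relative depth in G1 was 0.696 times that in G2 (interval 0.688 to 0.704), and in *sir2* cells 0.802 times (0.797 to 0.807). G1 was above G2 at 0 of 204 bases in WT and at 2 of 204 in *sir2*. The 5S gene differed less between arrests, with a ratio of G1 to G2 of 0.966 in WT and 1.15 in *sir2*. Relative to RDN5-1 the region in G1 was 0.720 times that in G2 in WT and 0.698 times in *sir2*, a distance between arrests of a like size to that between *sir2* and WT on this scale. In *cdc6-1* cells, relative depth at 37 degrees was 0.825 times that at 23 degrees (0.812 to 0.838), and this ratio was 0.736, 0.753, 0.837 and 0.946 over the 4 bins. The 5S gene had the ratio 0.823, so that the region relative to RDN5-1 had a ratio of 1.00 between temperatures. Each of these comparisons rests on 1 library a condition and none was tested.

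Mcm2-ChEC put a small part of its depth in the region. The region share was 1.75% in *sir2* (interval 1.72 to 1.77), against 0.573% (0.567 to 0.580) in the larger and 0.618% (0.599 to 0.636) in the smaller WT library. In the expanded strain it was 1.75% in *sir2* at 30 s and 1.98% at 60 s, against 1.57% in *SIR2* at 30 s and 1.56% at 60 s. All 3 *sir2* libraries were above all 4 *SIR2* libraries over the whole region, although the expanded strain has almost no depth right of the break. Over the 110 bases up to the break this order did not hold across backgrounds. Relative depth there was 0.177 in *sir2* without the expanded array, against 0.284 and 0.283 in expanded *SIR2* at 30 and 60 s. Within each strain background *sir2* was still above *SIR2* on these bases. However, the gap in the expanded strain was small beside that between the other strains.

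With labels permuted within the strain backgrounds, the mean difference of *sir2* from *SIR2* was 0.726 percentage points (exact two-sided permutation test, p = 0.0556, the smallest p that 18 regroupings allow; adjusted p = 0.0933). The 30 and 60 s libraries of a strain are counted as separate here and may share a culture. With the libraries of each strain averaged, the exact permutation test gave p = 0.5, the smallest that 4 regroupings allow. The mean over all libraries was 1.83 ± 0.133% in *sir2* (SD, n = 3) and 1.08 ± 0.559% in *SIR2* (SD, n = 4). These means pool strain backgrounds that differ in the bases with depth. Without the *sir2* library of the strains without the expanded array the difference was 0.303 points.

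In the strains without the expanded array, relative depth was 0.171 in *sir2*, against 0.0562 in the larger and 0.0606 in the smaller WT library. *sir2* was 3.05 times as high as the larger library (2.99 to 3.10) and 2.83 times as high as the smaller (2.73 to 2.92). With each library's lowest depth in the table subtracted, these ratios were 4.53 and 5.79. It was at least 2-fold higher at 177 of 204 bases over the larger library, against 36.5% of all 2001 bases, and at 160 of 204 over the smaller, against 39.9%. The 5S gene was higher by a like factor. Its relative depth was 0.314 in *sir2*, against 0.126 in the larger and 0.111 in the smaller WT library, and the region relative to RDN5-1 was 1.22 times and 0.998 times as high in *sir2* as in the larger and the smaller WT library. Over all 7 Mcm2-ChEC libraries the difference of *sir2* from *SIR2* on the RDN5-1 scale was 0.0182 (exact permutation test, p = 0.889).

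As in MNase-seq, the ratio was highest in the third bin, at 4.99 over the larger and 4.02 over the smaller WT library. The highest bases were 459915 and 459918, next to the base with the highest MNase-seq ratio. In the other bins the ratio was 2.55, 3.28 and 2.10 over the larger library and 1.50, 3.15 and 3.08 over the smaller.

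The profile of these 3 libraries had its inner maximum at base 83 (459879), the same base as in the MNase-seq libraries with *SIR2*. Relative depth there was 0.291 in *sir2*, against 0.0882 in the larger and 0.0912 in the smaller WT library. Profiles over 204 bases correlated at 0.319 to 0.431 among the 3 libraries, and over the first 110 bases they correlated with MNase-seq profiles at 0.441 to 0.987 (18 pairs). The WT libraries differed from each other near the T-run, with a relative depth over the run of 0.0365 in the larger and 0.0747 in the smaller, against 0.0969 in *sir2*.

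In the expanded strain, the profile took another shape. The inner maximum lay in the T-run, at bases 24 and 29 in *sir2* and bases 29 and 31 in *SIR2* at 30 and 60 s. Mean relative depth over the T-run was 0.510 and 0.556 in *sir2*, against 0.438 and 0.428 in *SIR2*. The first 102 bases held 97.8 to 97.9% of the region's depth in all 4 libraries, and the profiles correlated at 0.994 to 1.00 among them. Over the first 110 bases they correlated with the profiles of the 3 other Mcm2-ChEC libraries at -0.887 to -0.129 (12 pairs). The fall of depth towards the break in the expanded strain enters these correlations too. The share of the first 102 bases differed by -2.64 percentage points between *sir2* and *SIR2* across both strain backgrounds (exact permutation test, p = 0.611), with 49.9% in *sir2*, against 50.5% in the larger and 60.0% in the smaller WT library.

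Relative depth in the expanded strain was 1.12 times as high in *sir2* as in *SIR2* at 30 s (interval 1.10 to 1.14) and 1.27 times at 60 s (1.26 to 1.28). *sir2* was at least 2-fold higher at 0 of 204 bases at either time, and at 0.0% of all 2001 bases. Relative to RDN5-1 the ratio was 0.857 at 30 s and 1.07 at 60 s, so that its direction differed between the times.

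**Figure D4:**
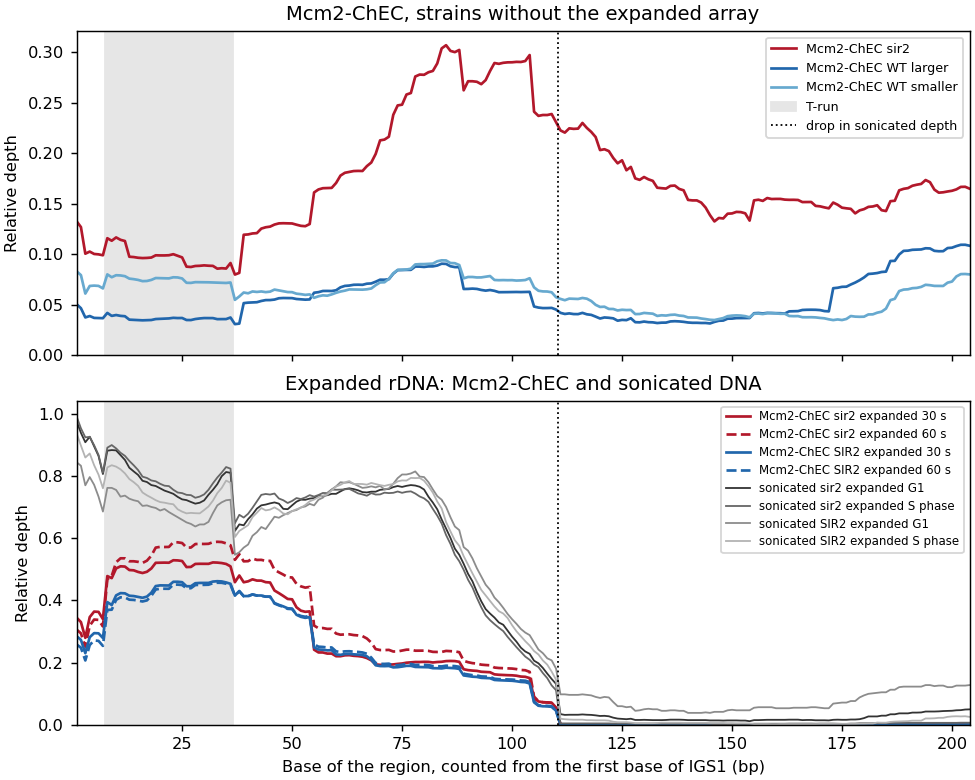
Relative depth (y axis, 1 is the library mean over 2001 bases) at each base of the region (x axis, bases from the start of IGS1) in Mcm2-ChEC of the strains without the expanded array (top) and in Mcm2-ChEC and sonicated DNA of the expanded strain (bottom). The grey band is the T-run and the dotted line the break between bases 110 and 111, right of which all 8 libraries in the bottom panel are near 0.

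Sonicated DNA gives the profile of these bases without footprints. Its region share was 3.75% in *sir2* G1, 3.66% in *sir2* S phase, 3.89% in *SIR2* G1 and 3.66% in *SIR2* S phase, with 88.5 to 97.6% of it in the first 102 bases. Over the 110 bases up to the break, relative depth was 0.644 to 0.663, against 0.870 to 0.918 over RDN5-1. The fall of depth towards the break lowers the values over the 110 bases. All 4 profiles had a step up at the first and a step down after the last base of the T-run.

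In the expanded strain, Mcm2-ChEC had a lower region share than sonicated DNA, 1.72 ± 0.198% against 3.74 ± 0.110% (SD, n = 4 each), a difference of -2.03 percentage points with no overlap (exact two-sided permutation test, p = 0.0286, the smallest that 70 regroupings allow; adjusted p = 0.0667). The libraries of each assay come from a *sir2* and a *SIR2* strain only, so that n counts libraries and not strains. The 5S gene was lower in Mcm2-ChEC too, at 0.299 to 0.480, against 0.870 to 0.918 in sonicated DNA. With RDN5-1 as the scale the difference turned to 0.0511 (exact permutation test, p = 0.371). The unevenness of the profile, the SD over bases as a percent of the mean, was 111 ± 1.26% in Mcm2-ChEC and 93.5 ± 8.93% in sonicated DNA (SD, n = 4 each; difference 17.0 points, exact permutation test p = 0.0286, adjusted p = 0.0667). Without either *sir2* Mcm2-ChEC library it was 16.5 or 17.0 points (exact permutation test, p = 0.0571). Over the 110 bases up to the break, unevenness was 43.1 to 47.1% in Mcm2-ChEC and 25.0 to 31.4% in sonicated DNA. Depth in both assays already falls towards the break over the last of these bases, and this fall is part of these values.

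Mean relative depth over these 110 bases was divided by the mean of the averaged sonicated profile. This ratio of means was 0.485 and 0.548 in *sir2* and 0.433 and 0.432 in *SIR2* in Mcm2-ChEC of the expanded strain at 30 and 60 s. Divided base by base by the sonicated profile, Mcm2-ChEC was highest at 459834 in all 4 libraries, just right of the T-run. The quotient there was 0.769 and 0.878 in *sir2* and 0.689 and 0.687 in *SIR2*. The ratio of means in MNase-seq was 0.936 in *sir2* G1 and 1.14 in *sir2* G2, against 0.354 in WT G1, 0.497 in WT G2, 0.414 in *cdc6-1* at 37 degrees and 0.557 at 23 degrees. The base-by-base quotient of MNase-seq was lowest at 459800 and highest at 459906, the last base before the break, in all 6 libraries. The sonicated profiles were low at 459906, with a relative depth of 0.111 to 0.180. Their fall towards the break also enters the ratios of means given here. MNase-seq depth itself did not peak there, with 0.194 to 1.13 at 459906, against 0.267 to 1.39 at 459900. In Mcm2-ChEC of the strains without the expanded array the ratio of means was 0.269 in *sir2*, against 0.0858 in the larger and 0.110 in the smaller WT library. The sonicated DNA comes from another strain than these 9 libraries.

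Over the whole region, the share was 5.49 ± 3.03% in MNase-seq (SD, n = 6) and 3.74 ± 0.110% in sonicated DNA (SD, n = 4), a difference of 1.75 percentage points (exact two-sided permutation test, p = 0.348). Over the 110 bases up to the break the difference had the other sign, -1.26 points (exact permutation test, p = 0.0905), and it was -0.135 points without the last and 2.83 points without the first 51 bases. The *sir2* and WT G2 libraries lay above all sonicated libraries, and WT G1 and *cdc6-1* at 37 degrees below all of them. Without *sir2* G2 the difference was 0.790 points. Here too n counts libraries and not strains. Unevenness was 36.7 ± 8.98% in MNase-seq and 93.5 ± 8.93% in sonicated DNA (difference -56.9 points, exact permutation test p = 0.00476, the smallest that 210 regroupings allow; adjusted p = 0.0333). Over the 110 bases up to the break, the difference in unevenness was -1.44 points (exact permutation test, p = 0.829), so that the whole-region difference was not found where both assays have depth. The fall of sonicated depth towards the break is part of this value and of the -1.26 points above.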

How the data were processed

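The authors deposited unscaled coverage (how many 50-base, paired-end reads lie over a base) at 2001 bases for 28 libraries. The submitters' processing notes name GSNAP, Picard, bedtools and the build sacCer3. Versions, duplicate removal and the treatment of reads with several places are not given in the sources used here. Of the libraries, 17 were used and 11 were not, as they belong to strains outside the choice of assays and genotypes above. Libraries were matched to samples by the strain number, arrest and phase in their names. Which sample of a replicate pair a library is was not settled for 6 of them.

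Each library was scaled to its own total depth. Depth summed over bases and divided by 50 was taken as reads. Region shares, ratios, 4 bins, an 11-base smoothing and the 6 steepest rises and falls were computed, and mean shares were compared with exact two-sided permutation tests (threshold 0.05, 7 tests, Benjamini-Hochberg adjustment; Mcm2-ChEC labels permuted within strain background), checked on simulated data. Depth per library is given with the results. Intervals (95%) cover counting error only. Alternatives were the RDN5-1 scale, the total without the origin window, subtraction of the lowest depth, bases dropped at the right end, libraries of a strain averaged, each library left out and, added after the data were seen, covered bases only and libraries matched by arrest or calcium time. The bases named are mainly maxima, minima, and steps shared by all 6 MNase-seq libraries. Steps at 459832, 459835, 459850 and 459851, which not all 6 share, are named beside them. The CAGCTG motif was chosen after its place was seen. The region, comparisons and lists were chosen with earlier results of these data known. The computations ran in Python 3.11.15 with scipy 1.17.1, pandas 2.3.3 and numpy 2.4.6, and figures were drawn with matplotlib 3.10.9.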

Additional observations from a re-analysis of the deposited data

How the results depend on the processing

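Of the 7 comparisons of means, 4 kept their direction and their side of the threshold under every alternative of scale, background and bases that was run, and 3 did not. For the comparisons of *sir2* with *SIR2* among the 4, the side of the threshold was fixed by the design. Their smallest possible p was 0.0556 or 0.0667 (exact permutation tests). The Mcm2-ChEC share in *sir2* against *SIR2* kept its direction on the RDN5-1 scale with a difference of only 0.0182 (exact permutation test, p = 0.889). The share of Mcm2-ChEC against sonicated DNA in the expanded strain turned to 0.0511 on the RDN5-1 scale. The share of MNase-seq against sonicated DNA was 0.318 on the RDN5-1 scale (exact permutation test, p = 0.0190). The sonicated mean on that scale takes in the 94 bases right of the break, which have almost no sonicated depth. No conclusion about the assays can therefore be drawn from this p. The share turned to -0.135 points without the last 51 bases and to -1.26 points over covered bases only. The unevenness of MNase-seq against sonicated DNA was -1.44 points over covered bases only. This setting leaves out the bases right of the break but keeps the fall of sonicated depth towards it. The cause of these changes was not tested. Leaving out each library in turn gave 0.303 to 0.783 points for the Mcm2-ChEC share in *sir2* against *SIR2*, -5.01 to 0.0488 for the share of the first 102 bases (0.0488 without the *sir2* library of the strains without the expanded array), -2.11 to -1.97 and 12.7 to 19.5 for the share and unevenness of Mcm2-ChEC against sonicated DNA, 0.790 to 2.23 and -61.2 to -54.3 for those of MNase-seq, and 4.64 to 6.68 for the MNase-seq share in *sir2* against *SIR2*. By replicate number, no paired analysis was possible because the labels number no replicates across groups, but arrest and calcium time match some libraries. Matched by arrest, the MNase-seq difference of *sir2* from WT was 5.53 points, and matched by calcium time in the expanded strain, the Mcm2-ChEC difference was 0.585 points (exact permutation test, p = 0.0833, the smallest that 12 regroupings allow). Both matchings were chosen after seeing the data. With the libraries of each strain averaged, p was 0.5 for the Mcm2-ChEC share and 1 for the share of the first 102 bases (exact permutation tests, 4 regroupings).

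Sonicated libraries held 941 to 3131 reads in the region, so their shares have the widest intervals. Depth without fragment sizes cannot separate small footprints from nucleosomes. No library without calcium was analysed here, so the depth of Mcm2-ChEC in this region has no background of its own. The comparisons of *sir2* with *SIR2* could not pass the threshold in these designs. The table ends inside IGS1, where MNase-seq depth was still high.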
